A study of Homo sapiens with 16 samples.

Results

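Globins carry oxygen in red blood cells. A haemoglobin molecule pairs chains from the alpha cluster on chromosome 16, where HBZ is used in the embryo and HBA2 and HBA1 afterwards, with chains from the beta cluster on chromosome 11, where HBE1 is used in the embryo, HBG1 and HBG2 in the fetus and HBB and HBD in the adult. Each cluster is switched on by a distant enhancer in erythroid cells, and the fetal genes are then silenced by repressors such as BCL11A, which recruit enzymes that modify chromatin. EZH2, which methylates H3K27 within Polycomb repressive complex 2, and G9a (EHMT2), which methylates H3K9, have both been studied as repressors of fetal globin in erythroid cells. HBM and HBQ1 are lesser known genes of the alpha cluster, and HBBP1 is a transcribed pseudogene of the beta cluster that lies between HBD and HBG1.

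The globin family was taken as 10 genes, HBG1, HBG2, HBE1, HBB, HBD, HBA1, HBA2, HBZ, HBM and HBQ1, and its members were found as the probes that carry one of these names. On the array 8 of the 10 genes had such a probe, of 32080 gene symbols in all, with 14 probes on 32 spots. No probe was named HBG2 or HBA1. The family was chosen by the rise of HBG1 with GSK126+UNC0638 in RPMI-8226 cells, so in that comparison, and in those of GSK126+UNC0638 with the single agents in the same cells, the values of all the globin probes are given as a description with no test. The 2 single agents in RPMI-8226 cells share their DMSO arrays with that comparison. The comparisons within MM.1S cells use other arrays.

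The cells were 2 established lines from human multiple myeloma, RPMI-8226 and MM.1S. Myeloma is a cancer of plasma cells, a lineage that makes immunoglobulin and not haemoglobin. Both were grown in culture for 6 days with the solvent DMSO, with the EZH2 inhibitor GSK126 at 1 µM, with the G9a inhibitor UNC0638 at 1 µM, or with GSK126+UNC0638 at 1 µM each, and each of these 8 groups had 2 arrays. Of the 11 plasma cell markers on the array, 10 were well above background on both DMSO arrays of either line, the exception being CD27. Each array measured 1 RNA sample with a single dye, so a value is the brightness of a spot. Well above background were 46.5% to 49.7% of the spots on the RPMI-8226 arrays and 49.9% to 52.8% on the MM.1S arrays. All 8 arrays of a line were on 1 slide, so line and slide cannot be told apart, and levels in the lines are set side by side without a test. The labels do not say whether the replicates came from separate cultures, so p-values measure the spread between these samples. In bulk RNA, more cells with a transcript and more transcript per cell cannot be told apart.

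Levels below are log2 intensities minus the 75th percentile of their array, so a level of 0 is a bright spot at that percentile. The lowest level that was well above background lay between -4.94 and -3.96, depending on the array. Below it the scanner software wrote in a surrogate value for many spots, and a probe that is not well above background has only a bound there. "At least N-fold" sets the mean of the bright group against that lowest level (or the probe's own level where higher) in the dim group. A probe was called when its adjusted p from limma over all probes kept in the line was under 0.05.

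The probes for near-identical genes need to be read together. Both HBG1 probes list the RefSeq transcripts of HBG1 and HBG2, so neither separates the fetal genes. They lie at chr11:5269534-5269593 and chr11:5269554-5269613 (GRCh37, the build of the files), overlap by 40 bases and differ in 1 of them. The difference is G22T, with positions counted from 1 at the 5′ end of A_23_P53137. The windows of 30 bases around it are shown because the pair gave different calls in MM.1S cells, and the capital marks the differing base.
A_23_P53137, bases 8 to 37: tcactgcccatgatGcagagctttcaagga
A_33_P3329078, bases 28 to 57: tcactgcccatgatTcagagctttcaagga

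Of the 3 HBA2 probes, A_33_P3258362 and A_24_P142305 list both HBA2 and HBA1, and A_23_P26457 lists HBA2 alone. The first and the last overlap by 55 bases with no difference, at chr16:223555-223614 and chr16:223560-223619, so the probe that lists 1 gene differs from its partner only in the 5 bases at either end. Those bases are in capitals below.
A_33_P3258362, bases 1 to 30: TTCCTggcttctgtgagcaccgtgctgacc
A_23_P26457, bases 31 to 60: ataccgttaagctggagcctcggtaGCCGT

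HBD has 1 probe, at chr11:5255258-5255317, which lists only HBD. Whether transcripts of HBB, the other adult gene of the cluster, also bind this probe was not tested. Its signal therefore cannot be assigned to HBD alone with certainty. The probe is printed whole because HBD was the globin called in the most comparisons.
A_24_P75190: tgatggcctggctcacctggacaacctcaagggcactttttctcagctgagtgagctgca

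Of the globin genes, the RefSeq promoter table held HBD and HBM. The 250 bases before the HBD start, at chr11:5234484-5234733 on the minus strand (GRCh38.p14), are shown because HBD was called with each treatment of MM.1S cells. Short motifs were searched for on both strands, and matches are in capitals.
HBD, before the start: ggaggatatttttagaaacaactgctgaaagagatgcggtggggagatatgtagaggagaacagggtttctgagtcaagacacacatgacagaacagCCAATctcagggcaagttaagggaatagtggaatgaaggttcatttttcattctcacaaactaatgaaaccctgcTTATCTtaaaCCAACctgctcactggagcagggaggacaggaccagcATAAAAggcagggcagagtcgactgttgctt

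The CCAAT box, which the factor NF-Y binds, was searched for as CCAAT, found at position -153 from the start, and as its variant CCAAC, found at -68. These letters occur in 32.0% and 33.0% of 35116 promoters of the same length. The site of GATA factors was searched for as TTATCT, found at -78 and in 9.17% of promoters. The TATA box was searched for as TATAAA, which was not in the window, and as its variant ATAAAA, found at -31 and in 14.8%. The site of KLF factors, searched for as CACCC, and that of BCL11A, searched for as TGACCA, were not in the window and occur in 54.7% and 9.19%. A match is a description of the letters and not of a bound factor.

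In RPMI-8226 cells HBD, HBB probe A_23_P203558 and HBG1 probe A_23_P53137 were below background in DMSO and above it with GSK126+UNC0638, the other HBG1 probe was above it in both, and the 3 HBA2 probes were lower with GSK126+UNC0638 than in DMSO. HBE1 and HBB probe A_33_P3289150 were below background throughout. With GSK126+UNC0638 in RPMI-8226 cells 7 of the 9 globin probes kept passed the threshold, 4 upward and 3 downward, where 12.6% of all 23195 probes kept did. This is the comparison that chose the family, and nothing is read from the count.

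HBG1 probe A_23_P53137, the fetal gamma chain, stood at -6.37 and -6.23 in DMSO, -4.24 and -5.48 with GSK126, -5.94 and -6.33 with UNC0638, and 2.32 and -0.42 with GSK126+UNC0638. Only the pair with both inhibitors was well above background, on 10 of 10 spots of each array, and the groups were far apart. The level with both was at least 37.0-fold that in DMSO, 33.9-fold that with GSK126 and 40.8-fold that with UNC0638. The replicates with both inhibitors differed by much more than the spots of 1 array, at intensities of 1587 and 227, against an SD between spots of 0.09 and 0.10 on the log2 scale.

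HBG1 probe A_33_P3329078 was above background on all 16 arrays. It read -2.64 and -2.94 in DMSO, -2.16 and -2.72 with GSK126, -2.96 and -3.25 with UNC0638, and 2.35 and -0.15 with GSK126+UNC0638, a mean 14.8-fold above DMSO (log2 difference 3.89 ± 0.72, SE). Where the overlapping probe was below background the source of this signal was not tested, so the DMSO level, and the fold that rests on it, cannot be assigned to HBG1 with certainty. On the arrays with both inhibitors the pair of probes gave nearly the same level, with intensities of 1620 and 274 for this probe. In DMSO they did not, with 53.8 and 38.1 against 4.06 and 3.89.

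HBB probe A_23_P203558, the adult beta chain, was at -6.54 and -6.24 in DMSO, -4.19 and -4.83 with GSK126, -6.36 and -6.40 with UNC0638, and -0.55 and -2.31 with GSK126+UNC0638. It was above background only with both inhibitors, where it was at least 7.13-fold above DMSO. With GSK126 alone 2 and 1 of its 10 spots were above background, and the adjusted p against DMSO was 0.276 (limma).

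HBD, the minor adult chain, read -6.58 and -6.34 in DMSO, -3.86 and -4.41 with GSK126, -3.81 and -3.87 with UNC0638, and -1.39 and -2.32 with GSK126+UNC0638. None of the DMSO arrays, 1 of the 2 GSK126 arrays and all the others were above background. The level with both inhibitors was at least 5.31-fold that in DMSO. HBBP1 followed the same order, at -4.56 and -4.86, then -1.99 and -2.61, -2.17 and -2.28, and 0.68 and 0.06. Its DMSO arrays were below background, and with both inhibitors it was at least 24.8-fold higher.

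With the single agents in RPMI-8226 cells HBD and its neighbour HBBP1 were called, but neither was above background in DMSO, both entered the fit through the treated groups, and the 4 calls were lost with no filter on dim probes and after normexp background correction. Against DMSO, GSK126 gave a call for 1 of 9 globin probes (0.599% of all probes kept were called) and UNC0638 also for 1 of 9 (0.638%), and in both it was HBD. The fitted log2 difference of HBD was 2.33 ± 0.33 (SE, adjusted p = 0.0465, limma) with GSK126 and 2.62 ± 0.33 (adjusted p = 0.0313) with UNC0638. Since HBD was not above background in DMSO, the bounds are at least 1.09-fold for GSK126 and 1.34-fold for UNC0638. Both calls were lost when any 1 of the 6 arrays of DMSO, GSK126 or UNC0638 was left out (adjusted p up to 0.239 and 0.172). After normexp the differences were 0.46 and 0.36. HBBP1 was at least 3.90-fold above DMSO with GSK126 (fitted difference 2.41 ± 0.28, adjusted p = 0.0326, limma) and at least 4.10-fold with UNC0638 (2.48 ± 0.28, adjusted p = 0.0268). The GSK126 call of HBBP1 was lost when any 1 of the 6 arrays of DMSO, GSK126 or UNC0638 was left out (adjusted p up to 0.153), after quantile normalization and with only the 2 groups fitted, and the UNC0638 call was lost without any 1 of the 4 arrays of DMSO or UNC0638 (up to 0.155). GSK126 and UNC0638 did not differ for HBD beyond their spread, with a log2 difference of -0.29 ± 0.33 (SE, adjusted p = 0.78, limma).

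**Figure D1:**
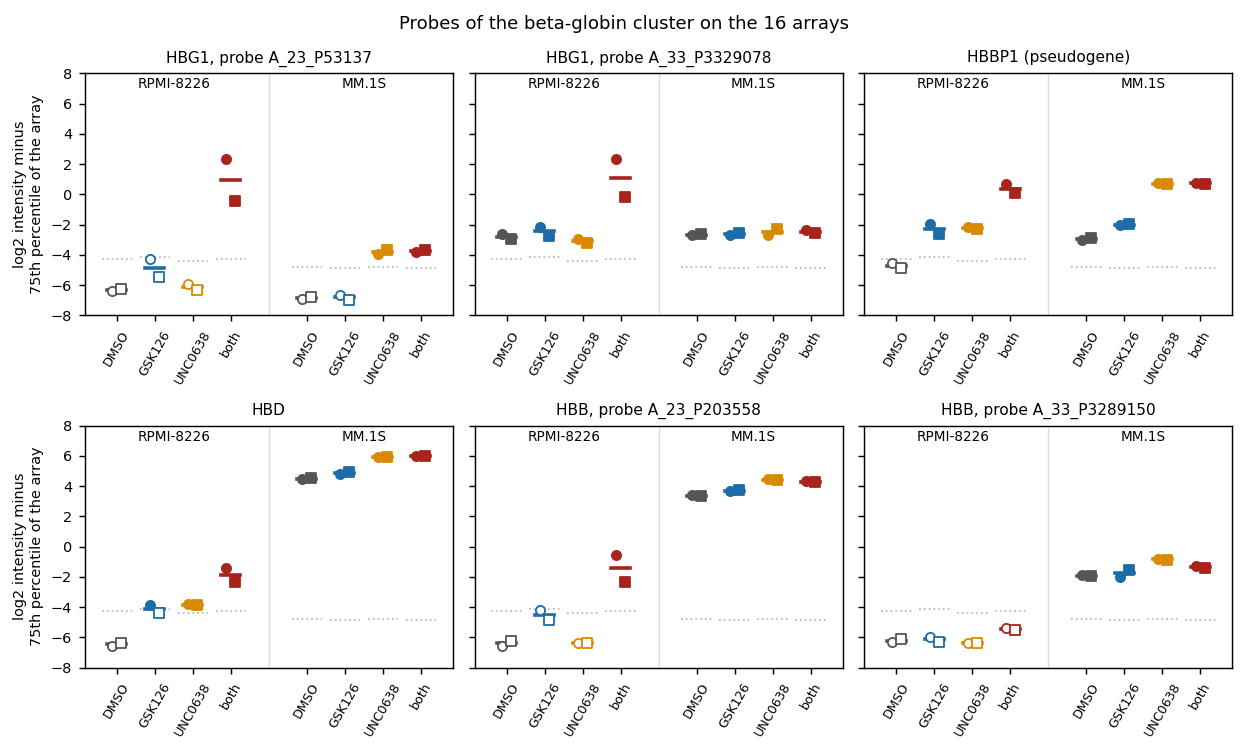
Levels of 6 probes of the beta-globin cluster on the 16 arrays, as log2 intensity minus the 75th percentile of the array. Circles are replicate 1 and squares replicate 2, open where the probe was not well above background, bars are group means of 2 arrays, dotted lines the lowest level well above background, and "both" is GSK126+UNC0638. In RPMI-8226 cells HBG1, HBD, HBBP1 and HBB probe A_23_P203558 were highest with both inhibitors, and in MM.1S cells HBD and HBB were bright in every group.

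In MM.1S cells probes named for both adult genes were already bright. HBB stood at 3.40 and 3.34 and HBD at 4.44 and 4.52 in DMSO, with intensities of 4336 to 4637 and 9476 to 9870, at least 198-fold and at least 428-fold above RPMI-8226 cells in DMSO. The HBA2 probes were reversed between the lines, which the dimmer HBQ1 probe was not (1.88-fold higher in MM.1S cells). HBA2 probe A_33_P3258362 read 3.01 and 3.11 in RPMI-8226 cells in DMSO and was below background in MM.1S cells, at least 228-fold lower. Neither line in DMSO was thus above background for both an HBB or HBD probe and this HBA2 probe.

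UNC0638 raised HBD, both HBB probes and 1 of the 2 HBG1 probes in MM.1S cells, and GSK126+UNC0638 gave no call over UNC0638. HBE1 was not above background and was not kept, and HBG1 probe A_23_P53137 was kept only through the groups with UNC0638. With UNC0638 4 of the 8 globin probes kept were called, all upward (29.5% of all 25095 probes kept were called), and with GSK126+UNC0638 also 4, all upward (53.6%). These shares pool both directions. Of 18748 genes kept, 2463 rose and 3255 fell with UNC0638, and 4168 rose and 6099 fell with both. Nothing is read from the counts of so few probes. With GSK126 alone 1 was called (7.48%). Among the globin probes kept the median log2 difference was 0.05 with GSK126, 0.62 with UNC0638 and 0.39 with both, against -0.05, -0.07 and -0.12 over all probes. These medians include HBG1 probe A_23_P53137, kept only through groups where it was high, and count HBB by both its probes. Nothing is read from them either.

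HBD rose from 4.44 and 4.52 in DMSO to 4.82 and 4.94 with GSK126, 5.92 and 5.93 with UNC0638 and 5.97 and 5.97 with GSK126+UNC0638. All treated arrays were above both DMSO arrays, and those with UNC0638 were above both GSK126 arrays. The rise was 1.32-fold with GSK126 (adjusted p = 0.0428, limma), 2.73-fold with UNC0638 (adjusted p = 0.000606) and 2.81-fold with both (adjusted p = 0.000155). The GSK126 call was lost when any 1 of the 8 arrays of the line was left out.

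HBB probe A_23_P203558 went from 3.40 and 3.34 to 3.66 and 3.72 with GSK126, 4.49 and 4.38 with UNC0638 and 4.31 and 4.29 with GSK126+UNC0638. The folds were 1.25 (adjusted p = 0.069, limma), 2.09 (adjusted p = 0.00123) and 1.91 (adjusted p = 0.00046). The probe of an Ensembl transcript 2.025 kb further along the chromosome, which is also named HBB and lists no RefSeq transcript, read -1.90 and -1.95 in DMSO, -0.80 and -0.89 with UNC0638 and -1.27 and -1.44 with both. Its rises were 2.12-fold with UNC0638 (adjusted p = 0.00676) and 1.49-fold with both (adjusted p = 0.0241, and from 0.052 to 0.104 without any 1 of the DMSO or GSK126+UNC0638 arrays), and it was not above background on any RPMI-8226 array.

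For HBG1 the 2 probes gave different answers in MM.1S cells. Probe A_23_P53137 stood at -6.88 and -6.80 in DMSO and -6.64 and -6.97 with GSK126, all below background. With UNC0638 it was at -3.91 and -3.65 and with GSK126+UNC0638 at -3.80 and -3.65, above background on 9 or 10 of 10 spots of each array. The rise was called with UNC0638 (adjusted p = 0.000479, limma) and with both (adjusted p = 0.000116), and was at least 1.99-fold and 2.07-fold. The probe was kept only through these groups, so both adjusted p rest on DMSO values below background, and only the bounds are read. Under the alternatives the fitted log2 difference with UNC0638 ranged from 0.57 to 3.15. Probe A_33_P3329078 read -2.69 and -2.63 in DMSO, -2.70 and -2.53 with GSK126, -2.69 and -2.30 with UNC0638, and -2.38 and -2.53 with both. These groups overlapped for UNC0638, and the differences of 0.17 ± 0.15 (SE, adjusted p = 0.425) and 0.21 ± 0.15 (adjusted p = 0.282) were not called. In intensities the first probe went from 3.71 and 3.84 in DMSO to 29.9 and 38.0 with UNC0638, and the second from 67.7 and 69.2 to 69.8 and 96.8. HBG1 in MM.1S cells thus rose by 1 probe of 2, to intensities far under those of RPMI-8226 cells with both inhibitors on the same probe.

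HBBP1, between HBD and HBG1, rose with every treatment of MM.1S cells. It read -3.02 and -2.91 in DMSO, -2.02 and -1.97 with GSK126, 0.73 and 0.69 with UNC0638 and 0.78 and 0.71 with both. These are rises of 1.95-fold (adjusted p = 0.00512, limma), 12.8-fold (adjusted p = 0.000153) and 13.0-fold (adjusted p = 3.18e-05).

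The single agents were set against each other in MM.1S cells. The level with GSK126 was below that with UNC0638 for 4 of the 8 globin probes kept (12.2% of all probes were called) and none was higher. HBG1 probe A_23_P53137, below background with GSK126 and kept only through the groups with UNC0638, was at least 2.09-fold lower. The log2 differences were -1.05 for HBD and -0.75 and -0.92 for the HBB probes. The adjusted p ran from 0.000655 to 0.0201 (limma) over the 4, and the lowest, that of HBG1, rests on values below background. GSK126+UNC0638 was above GSK126 for 3 probes (36.8%), by at least 2.17-fold for HBG1 probe A_23_P53137 and by 1.09 and 0.61 on the log2 scale for HBD and HBB probe A_23_P203558. Between GSK126+UNC0638 and UNC0638 limma called 0 of 8 (13.0%), with 1 probe at an unadjusted p under 0.05, the upstream HBB probe (log2 difference -0.51 ± 0.16, SE, adjusted p = 0.0843). For HBD that difference was 0.04 ± 0.08 and for HBG1 probe A_23_P53137 it was 0.05 ± 0.15.

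**Figure D2:**
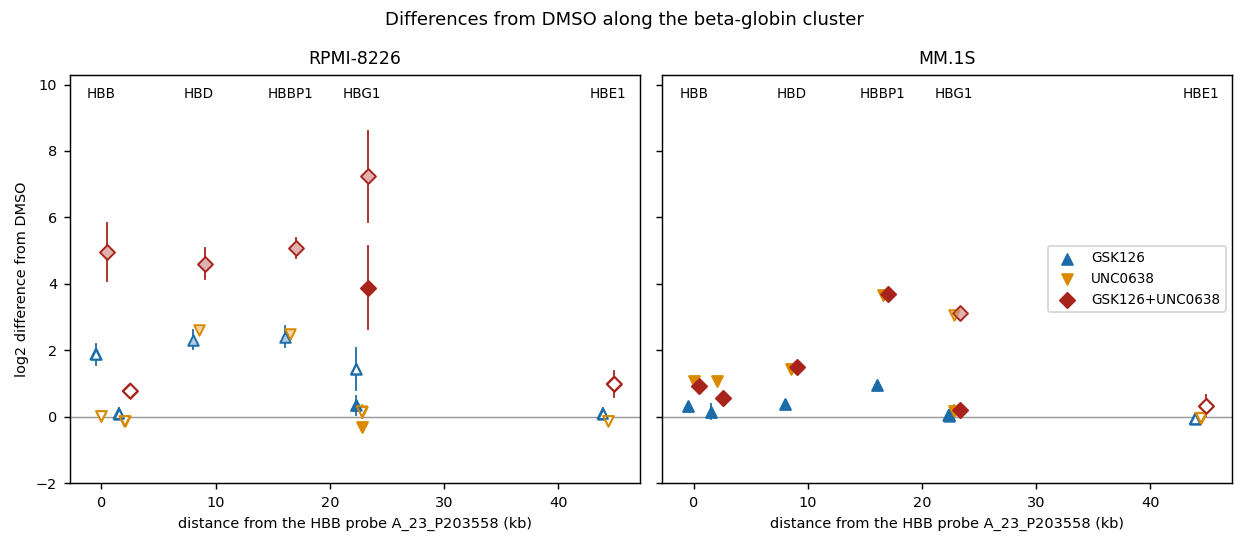
Log2 difference of each treatment from DMSO for the 7 probes of the beta-globin cluster, at their distance in kb from HBB probe A_23_P203558. Symbols are differences of group means, open where neither treated array was well above background and pale where neither DMSO array was. The plotted height of a pale symbol rests on DMSO values below background, many of them surrogate values, and only a bound is known. Vertical lines join the 2 treated arrays. Of the 5 probes above background with GSK126+UNC0638 in RPMI-8226 cells 4 are pale (bounds of at least 5.31-fold to 37.0-fold), and in MM.1S cells UNC0638 and GSK126+UNC0638 lay close together.

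HBE1, the embryonic chain at the far end of the cluster, 44.4 kb from HBB probe A_23_P203558, was not above background on any of the 16 arrays. Its intensity was 9.62 and 5.39 on the RPMI-8226 arrays with both inhibitors and at most 5.65 on the others, and values below background have no order. Around the cluster lie olfactory receptor genes and a group of TRIM genes. Of 19 such neighbours on the array 4 were kept in MM.1S cells and none in RPMI-8226, UBQLNL and the TRIM genes TRIM5, TRIM22 and TRIM34. With GSK126+UNC0638 TRIM22 rose at least 15.9-fold (adjusted p = 0.000146, limma), TRIM34 rose by 1.49 on the log2 scale and UBQLNL rose at least 1.22-fold, while TRIM5, an antiviral factor like TRIM22, had a log2 difference of 0.76 and an adjusted p of 0.0501. These are 3 calls of 4, where 54.8% of all genes were called. TRIM22 and UBQLNL were below background in DMSO and were kept through treated groups.

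In RPMI-8226 cells the HBA2 probes were lower on the arrays with UNC0638 than in DMSO. HBA2 probe A_33_P3258362 read 3.01 and 3.11 in DMSO, 3.67 and 3.63 with GSK126, 1.87 and 2.24 with UNC0638 and 1.50 and 2.13 with GSK126+UNC0638. The arrays with GSK126 were above those in DMSO, and all 4 arrays with UNC0638 were below both. Probe A_23_P26457 gave 2.97 and 3.21, 3.36 and 3.47, 1.81 and 2.15, and 1.43 and 2.11 in the same order, and probe A_24_P142305 gave -0.52 and -0.27, 0.18 and -0.01, -1.55 and -1.16, and -1.98 and -1.26. With both inhibitors the 3 probes lay 1.23 to 1.32 below DMSO on the log2 scale, which leaves 0.40 to 0.43 of the DMSO level. The order of the replicates with both inhibitors was the reverse of that in the beta cluster, with HBG1, HBB and HBD higher and the HBA2 probes lower on the array of replicate 1.

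Against DMSO neither single agent gave a call for an HBA2 probe. UNC0638 gave log2 differences of -0.96 to -1.11 (adjusted p from 0.166 to 0.277, limma) and GSK126 of 0.33 to 0.59 (adjusted p from 0.443 to 0.676). Set against each other, GSK126 was above UNC0638 by 1.59 ± 0.24 (SE, adjusted p = 0.0339, limma) at probe A_33_P3258362 and by 1.44 at the others (adjusted p = 0.0569 and 0.0679), which made 1 call among 9 globin probes (1.42% of all probes). The call was lost when any 1 of the DMSO, GSK126 or UNC0638 arrays was left out. With the replicate number as a block in the fit all 3 HBA2 probes were called in this comparison, and probe A_23_P26457 was called for UNC0638 against DMSO.

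In MM.1S cells the HBA2 probes had no level to follow. Probe A_33_P3258362 was below background on all 8 arrays. Probe A_23_P26457 was above it on 1 DMSO and 1 UNC0638 array, and probe A_24_P142305 on 1 GSK126 array.

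The other alpha-cluster genes were dim. HBQ1, the theta chain, was above background on all 16 arrays, at -3.28 to -2.01 in RPMI-8226 and -2.61 to -1.94 in MM.1S cells. In MM.1S cells with GSK126+UNC0638 it read -2.61 and -2.43 against -2.19 and -1.94 in DMSO, a difference of -0.46 ± 0.16 (SE, adjusted p = 0.0528, limma) that lay just outside the threshold. HBZ, the embryonic chain, was above background at 1 of its 3 probes, A_33_P3421827, on 6 of the 8 RPMI-8226 arrays and all 8 of MM.1S, with levels between -4.39 and -3.27 in RPMI-8226 cells and -3.94 and -3.14 in MM.1S cells and no call in any comparison. HBM was below background on all RPMI-8226 arrays. In MM.1S cells it read -4.08 and -4.15 in DMSO and -5.22 and -4.36 with both inhibitors, with 1 of those 2 arrays above background, a difference of -0.68 ± 0.28 (adjusted p = 0.0872). Next to the cluster lie housekeeping genes, and of the 8 kept in MM.1S cells 3 rose and 4 fell with GSK126+UNC0638 (54.8% of all genes were called). RHBDF1 rose by 3.31 on the log2 scale, POLR3K fell by 1.06, NPRL3, whose introns hold the alpha-globin enhancers, fell by 0.81, and SNRNP25 fell by 0.73. In RPMI-8226 cells limma called 0 of 9 with GSK126+UNC0638, with 2 at an unadjusted p under 0.05.

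**Figure D3:**
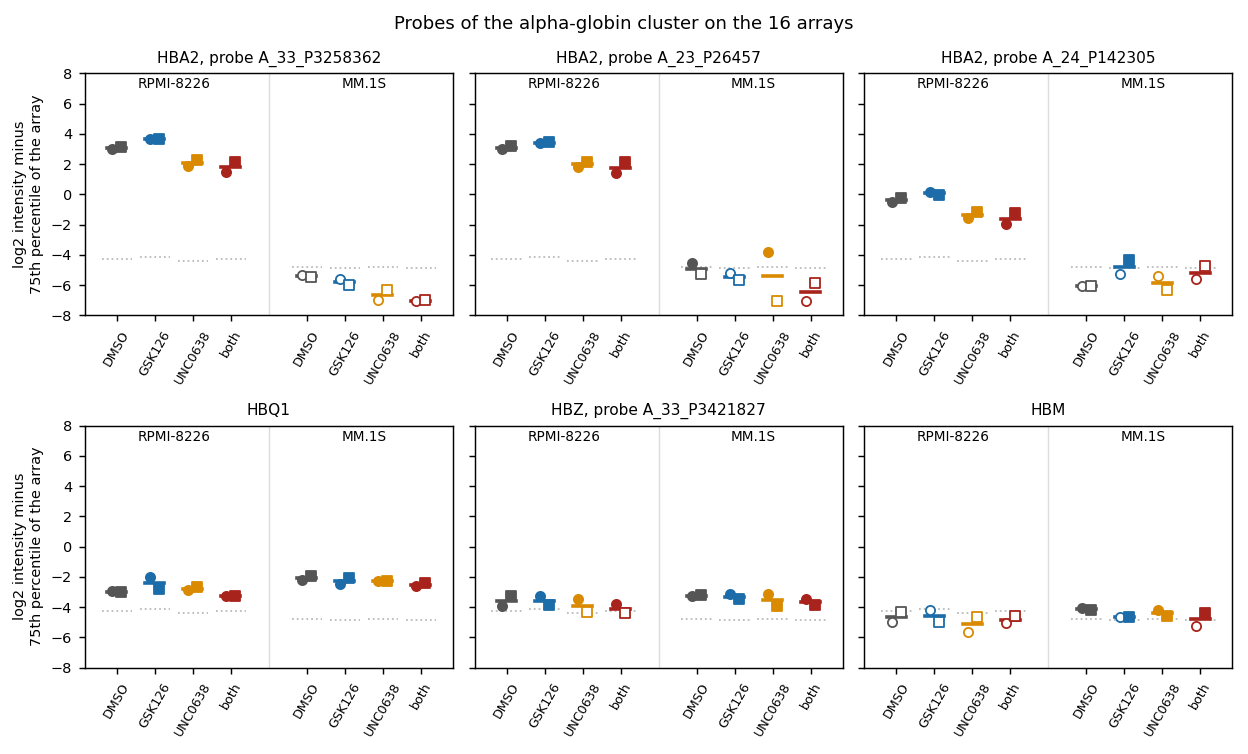
Levels of 6 probes of the alpha-globin cluster on the 16 arrays, as log2 intensity minus the 75th percentile of the array, drawn as for the beta cluster (circles replicate 1, squares replicate 2, open where not well above background, bars group means of 2 arrays, dotted lines the lowest level well above background). The 3 HBA2 probes were bright in RPMI-8226 cells, lower on the arrays with UNC0638 than in DMSO, and near or below background in MM.1S cells.

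Whether the lines responded differently to a single agent was tested over all 16 arrays. Of 11 globin probes kept in either line 1 was called for GSK126 (0.776% of 26922 probes) and 1 for UNC0638 (2.85%). HBD responded to GSK126 by 2.33 in the RPMI-8226 line and by 0.40 in MM.1S, a difference of 1.93 ± 0.37 (SE, adjusted p = 0.0488, limma). It was below background in RPMI-8226 cells in DMSO, so the first of these values rests on surrogate intensities, and its bound of at least 1.09-fold is under the 1.32-fold of MM.1S. Neither the size nor the direction of the difference is thus known, and 13 of 16 refits that each left out an array made no call. For the upstream HBB probe A_33_P3289150 the fit set -0.14 against 1.08 for UNC0638, a difference of -1.22 ± 0.23 (adjusted p = 0.0259), but the probe was below background on all RPMI-8226 arrays and has no measured response there, so no difference between the lines is read from it.

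Genes known to act on globin expression were described from lists. Of 37 genes linked to silencing of fetal globin 35 were kept in each line. With GSK126+UNC0638 in MM.1S cells 6 rose and 18 fell (54.8% of all genes were called), with a median log2 difference of -0.31 against -0.13 for all genes. The split moved with the scaling, to 8 and 12 after quantile normalization and 7 and 14 with the percentile taken over probes detected on all arrays. NR2F2, a nuclear receptor that binds the fetal promoters, rose by 3.03. MYB, a progenitor factor that keeps fetal globin low, fell by 2.17. BCL11A, the main repressor of the fetal genes, rose by 1.65, and CHD3, a remodeller of the NuRD complex, rose by 1.52, with adjusted p from 0.000136 to 0.000467 (limma) over the 4 genes. BCL11A thus moved the same way as HBB, HBD, HBBP1 and HBG1 probe A_23_P53137 in these cells, while HBG1 probe A_33_P3329078 was not called. A link between them was not tested. With the same treatment in RPMI-8226 cells 1 of 35 passed the threshold, BMI1, a Polycomb protein (12.9% of all genes).

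Of 16 genes linked to activation of fetal globin 13 were kept in MM.1S cells, of which 4 rose and 5 fell with GSK126+UNC0638 (54.8% of all genes were called). KLF4 rose by 2.99 and IGF2BP3, an RNA-binding protein of fetal cells, rose by 0.65, while KLF2 fell by 1.83 and HMGA2 fell by 0.52. After quantile normalization 5 rose and 3 fell, and with the percentile over detected probes 4 and 1.

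Of 16 factors that work at the globin enhancers 10 were above background on both DMSO arrays of RPMI-8226, and 9 on both of MM.1S. GATA1, TAL1, GATA2 and GFI1B were not above background on any array of either line, and NFE2 on none in MM.1S cells. Of 10 factors kept in MM.1S cells 3 rose and 4 fell with GSK126+UNC0638 (54.8% of all genes were called). LMO2, an adaptor between GATA and TAL1 proteins, came up from -6.22 and -6.36 to -2.76 and -2.17, at least 4.95-fold (adjusted p = 0.00084, limma). RUNX1 rose by 1.21, E2F2 fell by 1.60 and MAFK fell by 0.82. The split was 4 and 3 with the percentile over detected probes and 2 and 4 after normexp. In RPMI-8226 cells with GSK126+UNC0638 2 of 12 passed (16.7%, near the 12.9% of all genes), LMO2 at least 3.09-fold and NFE2 at least 2.36-fold above DMSO. With GSK126 alone NFE2 was called too, at least 2.87-fold above DMSO (adjusted p = 0.00987, limma). LMO2 in both lines and NFE2 in RPMI-8226 cells were below background in DMSO and were kept through treated groups alone. Their adjusted p thus rest on DMSO values below background, and only the bounds are read.

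Of 25 markers of erythroid cells on the array, ALAS2, AHSP, EPB42, RHAG, RHD, GYPB and GYPE were above background on no array. The summed level of the list (in units of the 75th percentile of the array) lay between 40.0 and 68.9 in DMSO and 52.2 and 63.7 with GSK126+UNC0638 in RPMI-8226 cells, and between 32.7 and 35.8 and 26.6 and 26.9 in MM.1S cells. Of 16 kept in MM.1S cells 8 rose and 2 fell with GSK126+UNC0638, which is 62.5% called and near the 54.8% of all genes. KEL came up from below background, at least 1.90-fold, SPTB rose by 2.70 and RHCE, a blood group protein, came up at least 1.80-fold. In RPMI-8226 cells 4 of 16 passed the threshold upward with GSK126+UNC0638 (12.9% of all genes passed), among them SPTB (log2 difference 3.06), CA2 (at least 11.4-fold) and TSPO2 (0.60). The genes named here for RPMI-8226 cells were chosen after their values were seen. Of 14 heme synthesis genes kept in MM.1S cells 2 rose and 4 fell, 42.9% called against 54.8% of all genes (4 and 3 after quantile normalization), and FLVCR1, a heme exporter, fell by 0.89. In RPMI-8226 cells limma called 0 of 14, with 1 at an unadjusted p under 0.05. Of the myeloid markers kept 4 of 7 passed upward and none downward in RPMI-8226 cells (12.9% of all genes). In the MM.1S line 3 of 5 rose and 1, CSF3R, fell by 1.18 (54.8%). ITGAM was higher in both (at least 10.5-fold, and by 3.58 on the log2 scale). S100A8, S100A9 and ITGAM in RPMI-8226 cells and S100A9 in MM.1S cells were above background on no DMSO array. They were kept through treated groups, so nothing is read from the myeloid counts. Plasma cell markers fell in 9 of 10 in MM.1S cells with GSK126+UNC0638 (54.8% of all genes were called), while after quantile normalization 3 fell and 1 rose. In RPMI-8226 cells with GSK126+UNC0638 3 of 10 passed downward and 1 upward (12.9%). Of 8 megakaryocyte markers 2 were kept in RPMI-8226 and 3 in MM.1S, and limma called 0 in either line, with 1 and 2 at an unadjusted p under 0.05 (in MM.1S cells 1 fell after quantile normalization and 2 after normexp). The part of these lists in the globin values was not tested.

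**Figure D4:**
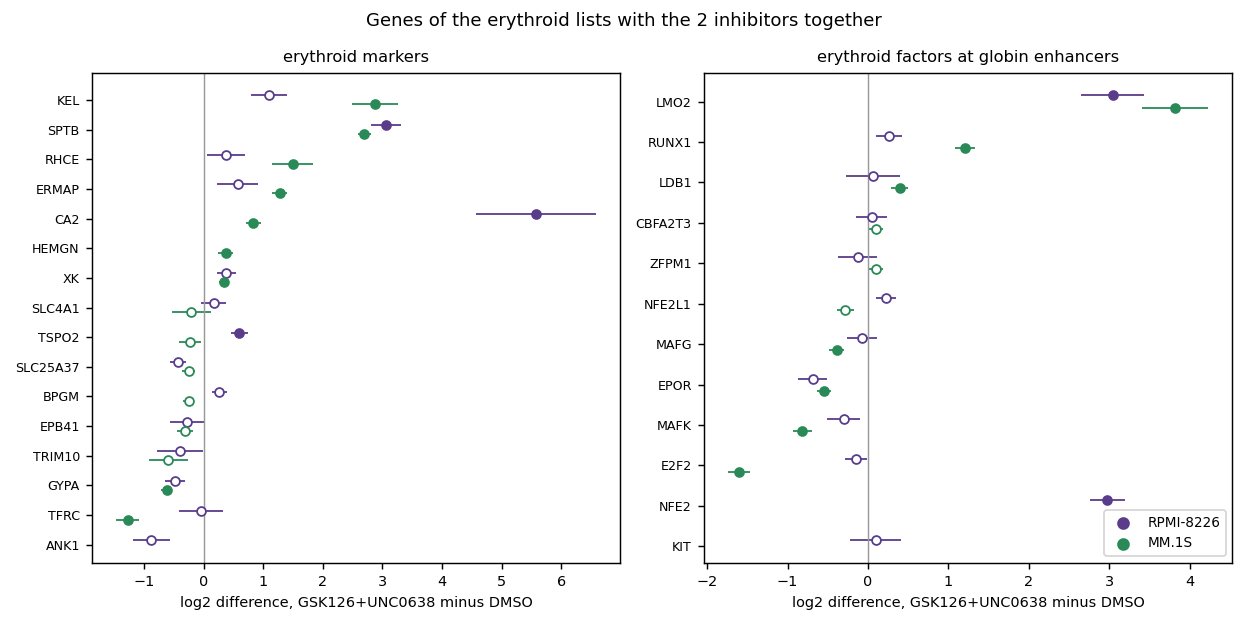
Log2 difference of GSK126+UNC0638 from DMSO, with its SE, for erythroid markers (left) and erythroid enhancer factors (right) kept in RPMI-8226 or MM.1S cells, filled where the adjusted p was under 0.05. LMO2 and SPTB lay to the right in both lines, and NFE2 and CA2 in RPMI-8226 cells. LMO2 in both lines, NFE2 and CA2 in RPMI-8226 and KEL and RHCE in MM.1S were below background in DMSO, so their plotted values rest on intensities below background.

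Globins that work outside red cells were read from the same arrays. In MM.1S cells MB, the oxygen store of muscle, rose by 0.85 and CYGB, the cytoglobin of connective tissue, fell by 0.99 with GSK126+UNC0638 (54.8% of all genes were called). NGB, the globin of neurons, was not kept there. In RPMI-8226 cells all 3 were kept, and limma called 0 with either single agent. With GSK126+UNC0638 it also called 0 (12.9% of all genes), with 1 at an unadjusted p under 0.05.

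The genes whose 6 differences from DMSO lay nearest to those of HBG1 probe A_33_P3329078 were LOC100506563, TYRP1, COL1A2, TRIM67 and PMP22. Their root mean square differences from it were 0.172 to 0.195 on the log2 scale, among 22471 probes compared (those kept in RPMI-8226 cells that carry a gene name, the HBG1 probes left out), over 3 treatments in 2 lines. Each was 3.63 to 4.01 above DMSO with GSK126+UNC0638 in RPMI-8226 cells and between -0.10 and 0.14 from DMSO in the MM.1S groups. The ranking rests on the DMSO level of this probe, whose source was not tested. None of these genes was among the nearest to the other HBG1 probe, A_23_P53137, whose nearest lay further off, at up to 1.22. The genes were matched on these differences, so their rise in RPMI-8226 cells follows from the match. It also comes from the comparison that chose the family.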

How the data were processed

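RNA from 2 myeloma cell lines under 4 treatments, 2 samples a group, was hybridised to 16 one-colour Agilent arrays. The deposited scanner files hold processed intensities that the authors obtained with Agilent Feature Extraction 10.7 (per the submitters' processing notes), background-subtracted and not normalized between arrays. The table of the whole series holds the same deposited intensities rounded (100.0% of spot values within 0.55%).

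Of 62976 spots 4259 control spots were left out, and log2 intensities, less the 75th percentile of their array, were averaged over the spots of each of 50599 probes. A probe was kept where both arrays of any 1 group were well above background, 23195 in RPMI-8226, 25095 in MM.1S and 26922 in either. Contrasts were fitted over the 8 arrays of a line, and differences between lines over all 16, with limma 3.58.1 in R 4.3.3, p-values adjusted by Benjamini-Hochberg and a threshold of 0.05. The scripts were tested on simulated data. The number of arrays limits the precision.

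The members and lists were chosen with earlier results of these data known. Named are all probes of the members, at most 4 called genes a list by the size of the difference of GSK126+UNC0638 from DMSO in MM.1S, cluster neighbours and pseudogenes above background, and the 5 genes nearest to HBG1 probe A_33_P3329078. A list gene was read from its brightest probe in the line, and 2 genes of the lists are counted but not reported here. Alternatives were other normalization, background correction, filters, prior variance, samples in the fit, the replicate number as a block and each array left out. Samples sharing a replicate number deviated together in 6 of 6 pairs of RPMI-8226 groups (r from 0.254 to 0.415) and 5 of 6 in MM.1S (from 0.0847 to 0.225). The numbers may thus pair the samples, more so in RPMI-8226. The main fit did not use this pairing in either line, so its p-values are unpaired. The pairing entered only the alternative with the replicate number as a block.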

Additional observations from a re-analysis of the deposited data

Results flagged for a closer look

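For HBD the fitted response to GSK126 differed between the lines by a log2 value of 1.93 (2.33 in RPMI-8226 cells minus 0.40 in MM.1S cells, adjusted p = 0.0488, limma). HBD was below background in RPMI-8226 cells in DMSO and above it on 1 of the 2 GSK126 arrays, against intensities of 9476 and 9870 in MM.1S cells in DMSO, and after normexp background correction the adjusted p was 0.959. The bound in RPMI-8226 cells, at least 1.09-fold, is under the 1.32-fold of MM.1S cells, so neither the size nor the direction of the difference is known. Of 16 refits that each left out an array 13 made no call (adjusted p up to 0.169).

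For HBB probe A_33_P3289150 the fitted response to UNC0638 differed by -1.22 (-0.14 minus 1.08, adjusted p = 0.0259, limma). The probe was above background on all 8 MM.1S arrays and on no RPMI-8226 array, so it has no measured response in RPMI-8226 cells and no difference between the lines is read from the value. Of 16 such refits 7 made no call (adjusted p up to 0.0888). Line and slide cannot be told apart in either comparison.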

How the results depend on the processing

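Of 36 called values of single probes, 306 of 344 recomputed values kept the call, 38 lost it and 0 reversed, apart from leaving out arrays. The 36 include the values of GSK126+UNC0638 against DMSO in RPMI-8226, the comparison that chose the family. They also include probes kept only through treated groups. The tally describes the processing and is no support for those values. Counts of called globin probes moved as follows. For GSK126 against DMSO in RPMI-8226 (1 called) the count was 0 after normexp, with no filter, with probes above background on all arrays, with an intensity-dependent prior and with only the 2 groups fitted, and 2 with all 16 arrays in 1 fit. For UNC0638 (1) it was 0 after normexp and with either filter, and 2 with the replicate block. For GSK126+UNC0638 (7) it was 4 with either filter and 3 with only the 2 groups. For GSK126 against UNC0638 (1) it was 2 with the percentile over detected probes, the strict filter or all 16 arrays, 3 after normexp, with the replicate block or the intensity-dependent prior, and 0 with no filter or only the 2 groups. In MM.1S, GSK126 against DMSO (1) gave 2 after quantile normalization, normexp, the percentile over detected probes or the intensity-dependent prior, and 0 with no filter, only the 2 groups or all 16 arrays. GSK126+UNC0638 against UNC0638 (0) gave 1 after normexp or with the intensity-dependent prior. The difference between lines gave, for GSK126 (1), 0 with the percentile over detected probes, normexp or either filter, and, for UNC0638 (1), 2 after normexp and 0 with either filter or the intensity-dependent prior. The cause was not tested, except that a strict filter leaves out probes and fewer groups leave fewer arrays.

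Leaving out 1 array gave, in RPMI-8226, 0 to 1 called probes for GSK126 and for UNC0638, 3 to 7 for GSK126+UNC0638 and 0 to 4 for GSK126 against UNC0638. In MM.1S it gave 0 to 0 for GSK126, 4 to 4 for UNC0638, 3 to 5 for GSK126+UNC0638, 3 to 4 for GSK126 against UNC0638, 3 to 4 for GSK126+UNC0638 against GSK126 and 0 to 0 against UNC0638. The differences between lines gave 0 to 2 for GSK126 and 0 to 3 for UNC0638. With the replicate block MM.1S had 1, 4 and 5 called probes against DMSO for GSK126, UNC0638 and GSK126+UNC0638. With all 16 arrays in 1 fit HBB probe A_23_P203558 lost its calls in MM.1S cells with UNC0638 and GSK126+UNC0638 (adjusted p of 0.114 and 0.106, limma). HBB probe A_33_P3289150 kept both of its calls there. The percentile over detected probes moved the median of all probes with GSK126+UNC0638 from -0.14 to 0.00 in RPMI-8226 and from -0.12 to 0.05 in MM.1S. The slide as a block was not run, since each line was on 1 slide, and a fit of only the groups compared gives no value for differences between lines.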
